A study of Mus musculus with 8 samples.

Results

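PU.1 binding sites called after 8 days of doxycycline (Dox) were set against those called after 12 days of Dox in AML246 cells, a line from a mouse acute myeloid leukaemia. Both libraries carry the word restoration in their titles, for PU.1 brought back by Dox. A site is a summit, the single base at which the authors' peak caller placed the top of a peak. Sites of the 2 lists were paired as shared at distances of up to 100 bp. Shared sites are called kept, Day 8 sites without a partner are called missing at Day 12, and Day 12 sites without a partner are called new. The 2 lists held 33962 and 86271 sites, which together are 120233 of the 365360 sites in the 7 lists of the series.

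Both cultures grew in IMDM with 10% FCS and IL-3 and received 0.1 ug/mL Dox from day 0, so Dox was still present at both time points. It was withdrawn on day 12 of the 24 day course, after the Day 12 sample. For both, total viable cells were sorted by FACS before the immunoprecipitation. The sequencing libraries came from a TruSeq ChIP kit and were read on a NextSeq500. Each time point was 1 library of 1 line with no replicate, so no difference between Day 8 and Day 12 below has a test, and the spread between cultures is unknown. Peak summits do not measure expression, so the cell type could not be checked against its markers. The sources used here give neither the way Dox acts on PU.1 in this line nor the sequencing depth or the control library.

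PU.1, encoded by Spi1, is an ETS-family transcription factor that binds purine-rich DNA around a GGAA core. In blood formation it drives the monocyte and granulocyte programmes, and many genes for myeloid receptors, the phagocyte oxidase and granule proteins carry PU.1 sites in their promoters and enhancers. Other ETS factors share the GGAA core, and many of them prefer a C-rich flank that is common in the promoters of widely expressed genes.

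Promoter windows of 6 genes are shown first. The share with a PU.1-type motif differed between windows called in both lists and those called at Day 12 alone. Each window covers 300 bases, from 250 before a listed start to 50 after it, from RefSeq on GRCm38.p6, written 5′ to 3′ along the gene. Capitals mark GAGGAA and its longer form GAGGAAGT, a PU.1-type motif, on either strand, where TTCCTC is GAGGAA read on the other strand. CCGGAAGT, a general ETS-type motif, was also searched and occurs in none of these windows. The genes were chosen after their values were seen. Of 28 windows with a summit of both lists at genes named by the rule given below, 7 held GAGGAAGT. Laptm5, a lysosomal membrane protein of blood cells, Cd300lf, an inhibitory receptor of myeloid cells, and Elane, neutrophil elastase, had a summit of both lists in the window. Ercc2, a DNA repair helicase, and Vcp, an ATPase of protein turnover, had a Day 12 summit with no Day 8 summit. S100a9, a calcium-binding protein of neutrophils and monocytes, had a Day 8 summit with no Day 12 summit.
Laptm5 (chr4:130913066-130913365, plus strand): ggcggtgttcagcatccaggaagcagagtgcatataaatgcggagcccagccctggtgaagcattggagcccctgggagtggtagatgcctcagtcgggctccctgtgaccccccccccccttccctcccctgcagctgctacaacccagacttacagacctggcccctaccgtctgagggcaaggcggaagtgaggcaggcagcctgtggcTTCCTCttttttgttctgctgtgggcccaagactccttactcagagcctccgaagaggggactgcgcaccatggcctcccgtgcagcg
Cd300lf (chr11:115133943-115134242, minus strand): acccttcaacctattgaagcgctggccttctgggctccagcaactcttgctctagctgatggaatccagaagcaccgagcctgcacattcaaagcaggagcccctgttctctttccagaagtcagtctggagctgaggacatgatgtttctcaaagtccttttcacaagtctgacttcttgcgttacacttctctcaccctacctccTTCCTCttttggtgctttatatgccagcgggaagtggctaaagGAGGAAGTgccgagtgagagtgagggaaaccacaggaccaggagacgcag
Elane (chr10:79886062-79886361, plus strand): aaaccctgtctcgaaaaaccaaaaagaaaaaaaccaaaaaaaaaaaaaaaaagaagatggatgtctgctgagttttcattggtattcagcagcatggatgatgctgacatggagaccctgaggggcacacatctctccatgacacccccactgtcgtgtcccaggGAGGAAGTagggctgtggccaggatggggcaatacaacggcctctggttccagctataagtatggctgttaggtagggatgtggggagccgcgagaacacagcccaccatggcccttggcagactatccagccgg
Ercc2 (chr7:19381767-19382066, plus strand): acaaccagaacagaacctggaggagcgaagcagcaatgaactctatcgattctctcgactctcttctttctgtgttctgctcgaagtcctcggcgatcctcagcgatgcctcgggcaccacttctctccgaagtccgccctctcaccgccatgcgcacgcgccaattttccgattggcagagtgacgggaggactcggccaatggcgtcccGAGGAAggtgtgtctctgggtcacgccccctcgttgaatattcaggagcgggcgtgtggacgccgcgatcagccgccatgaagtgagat
Vcp (chr4:43000458-43000757, minus strand): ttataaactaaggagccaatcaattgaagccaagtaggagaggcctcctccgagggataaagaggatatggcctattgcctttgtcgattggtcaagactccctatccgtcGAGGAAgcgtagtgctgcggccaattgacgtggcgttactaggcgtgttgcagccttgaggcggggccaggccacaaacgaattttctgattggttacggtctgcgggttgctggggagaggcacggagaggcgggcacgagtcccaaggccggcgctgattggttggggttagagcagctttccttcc
S100a9 (chr3:90695672-90695971, minus strand): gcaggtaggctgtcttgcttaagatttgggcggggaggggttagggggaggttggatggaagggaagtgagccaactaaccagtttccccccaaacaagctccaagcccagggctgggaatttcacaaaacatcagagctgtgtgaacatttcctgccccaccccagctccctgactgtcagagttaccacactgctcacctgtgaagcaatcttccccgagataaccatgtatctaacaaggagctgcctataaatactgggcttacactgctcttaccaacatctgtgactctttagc

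In the Laptm5 window the Day 8 summit lay 59 bp before the start and the Day 12 summit 56 bp before it, with deposited scores of 365 and 798. The score is the authors' −log10 q-value of a peak in its own list, so the 2 values say nothing of how binding changed. At Cd300lf the summits lay 25 and 24 bp after the start, with scores of 361 and 414, and the window holds GAGGAAGT 1 time. At Elane they lay 71 and 6 bp before the start, with scores of 57.3 and 137. The Day 12 summits of Ercc2 and Vcp lay 133 and 72 bp before the start, with scores of 138 and 105, and both windows hold GAGGAA but not GAGGAAGT. The Day 8 summit of S100a9 lay 169 bp before the start with a score of 13.0, and its window holds none of these motifs. A match of letters is a description and not a measured binding site.

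Over all 21263 such windows of 17492 protein-coding genes, GAGGAAGT occurred in 3.13%. It occurred in 8.61% (95% interval 7.62 to 9.68, 254 of 2949) of windows with a summit of both lists. Intervals here and below are exact binomial intervals and cover counting error only. Among windows with a Day 12 summit and no Day 8 summit in them or within 500 bp, the share was 2.08% (1.54 to 2.74, 48 of 2311). Among the 107 windows with a Day 8 summit and no Day 12 summit that near, 12 held it, which is 11.2% (5.93 to 18.8). Windows with no summit of either list that near held it in 2.60% (2.30 to 2.93). The share with the PU.1-type motif was thus higher among promoters called at both times than among those called at Day 12 alone, and at a score of 20 or more these shares were 11.3 and 2.15%.

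The general ETS-type motif CCGGAAGT occurred in 5.15% of all windows. It occurred in 17.6% of windows called in both lists, 6.97% of those called at Day 12 alone, 2.80% of those called at Day 8 alone (3 of 107) and 0.760% of those with neither. GAGGAA, which every GAGGAAGT match contains, occurred in 27.4% of all windows and in 38.3, 22.6, 51.4 and 27.3% of these 4 kinds in the same order. GAGGAAGT and CCGGAAGT share their last 6 letters but cannot match at the same place. CCAAT, a promoter box bound by NF-Y, occurred in 38.2% of all windows and in 35.8% of windows in both lists, 42.4% at Day 12 alone and 34.6% at Day 8 alone.

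Base composition moved with these kinds of window. The median GC content was 63.0% for windows in both lists, 61.3% at Day 12 alone, 57.7% at Day 8 alone and 49.3% for neither. Among windows of at least 55% GC, GAGGAAGT occurred in 7.48% of those in both lists, 1.78% at Day 12 alone and 0.871% with neither, so the order of the last 2 turned. At that GC content only 1 of 62 windows at Day 8 alone held it (1.61%, 0.0408 to 8.66), so the higher share of this kind rested on windows of lower GC. Summits lay close to the motif where it was present. Where a promoter window held both, the median distance to GAGGAAGT was 14.5 bp for Day 8 summits and 22.5 bp for Day 12 summits, and 79.7 and 71.6% lay within 50 bp.

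How many sites were found at the other time depended on the score. In the full lists 58.8% of Day 8 sites were kept and 41.2% (13981) were missing at Day 12, while 76.8% of Day 12 sites (66290) were new. Day 8 sites with a score below 5 were kept in 32.1% of cases (30.2 to 34.1), those from 20 to 50 in 76.5% (75.5 to 77.4) and those of 100 or more in 95.6% (94.8 to 96.4). For Day 12 sites the shares with a Day 8 partner were 3.84% below 5, 42.9% from 20 to 50 and 90.4% (89.6 to 91.1) at 100 or more. The strongest peaks of each list were thus mostly called at both times, and missing and new sites lay mostly among low scores. The median score was 23.4 for kept and 8.85 for missing sites in the Day 8 list, and 44.1 for kept and 6.93 for new sites in the Day 12 list.

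**Figure D1:**
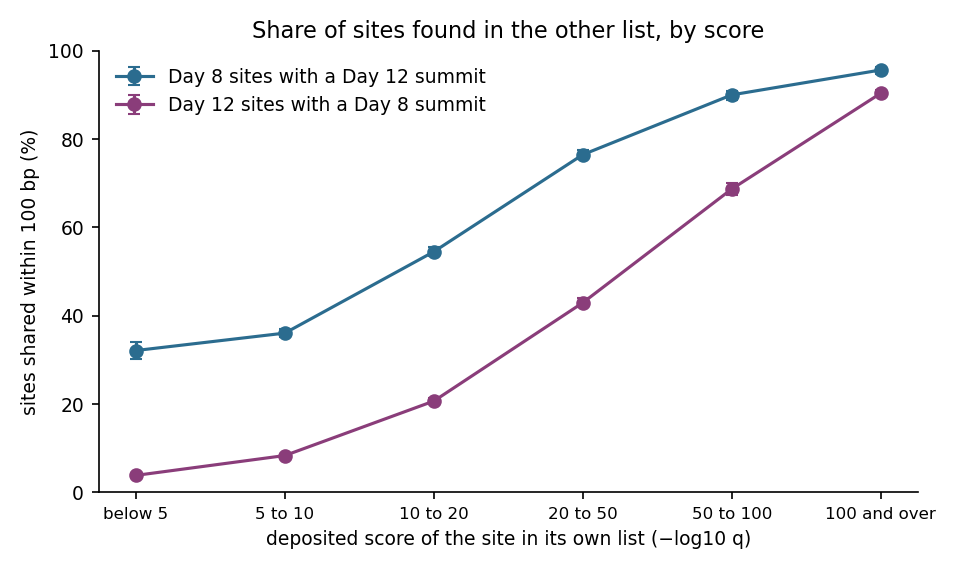
Share of sites with a summit of the other list within 100 bp (y axis, percent) by the site's own deposited score (x axis, −log10 q in 6 ranges), with exact 95% intervals. The Day 8 points run from 32.1 to 95.6% and the Day 12 points from 3.84 to 90.4%, and the Day 8 point is higher in each range.

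With the lists reduced to sites of score 20 or more, 66.6% of Day 8 sites were kept and 33.4% (4388 of 13128) were missing, and 58.7% of Day 12 sites (12424 of 21164) were new. Partners below 20 were not counted here, so a site missing or new at this limit could have a weaker partner. With partners of any score, 76.5% of Day 8 sites from 20 to 50 were kept. With the 33962 highest-scoring sites of each list, 48.2% were kept, and 51.8% (17602) were missing or new. The lowest Day 12 score in that list was 10.5. Partners lay close together, with a median distance of 24 bp and an upper quartile of 48 bp. The 100 bp limit had no sharp edge, since 553 Day 8 sites had their nearest Day 12 summit at 91 to 100 bp and 510 at 101 to 110 bp. Near the score limit, 616 Day 8 sites scored from 19 to 20 and 553 from 20 to 21, and in the Day 12 list the numbers were 779 and 402. Of Day 8 sites 3974 lay over 10 kb from any Day 12 summit, and of Day 12 sites 31789 lay over 10 kb from any Day 8 summit.

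The 10 kept sites with the highest scores at both times were ranked by the lower score of each pair. The first was 126 bp before a start of Pisd, a mitochondrial enzyme of phospholipid synthesis (chromosome 5, 32746468 on mm10), at 583 in the Day 8 list and 847 in the Day 12 list. The site inside Nod2, a sensor of bacterial peptidoglycan, scored 577 and 591. The site inside Alox5ap, the activating protein of 5-lipoxygenase in leukotriene synthesis, scored 521 and 663. Others lay inside or near Susd1, Ceacam16, Serpinf1, Rasa3, Ptpn1, Fosl2 and Ssh1, with Day 8 scores from 442 to 543. Their partners lay 1 to 54 bp apart, and all 10 were also called at Day 4, in the library titled Day 12- 4 and in the library titled Day 12- 12.

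The highest missing and new sites were next ranked among those over 500 bp from any summit of the other list. Without that limit the highest scores were 490 for missing and 661 for new sites. The 10 highest Day 8 sites over 500 bp from any Day 12 summit each had one between 596 and 1125 bp away. The 10 highest Day 12 sites over 500 bp from any Day 8 summit had one between 501 and 786 bp away. The lower ends of these ranges are bounded by the 500 bp limit. Slc43a2, an amino acid transporter, led these 10 missing sites with a Day 8 score of 379 inside the gene (chromosome 11, 75533173). The next Day 12 summit lay 1125 bp away. The missing site at Trmt2a, a transfer RNA methyltransferase, lay at a listed start and scored 213. The missing site inside Per1, a circadian repressor, scored 159. At Elf2, itself an ETS-family gene, the 2 lists each had a summit without a partner 596 bp apart, the Day 8 one scoring 191 and the Day 12 one 457. The first of these 10 new sites lay 79 bp outside Thap1, a zinc-finger factor (chromosome 8, 26158090), and scored 478. The new site inside Gabpb2, a subunit of the ETS complex GABP, lay 62 bp before a start and scored 349, and the other 5 lists held no summit within 100 bp of it.

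On placed chromosomes, 3965 missing and 31765 new sites lay over 10 kb from any summit of the other list. Of these, 349 of the 3965 missing and 2454 of the 31765 new sites scored 20 or more. The highest of the missing sites lay inside Akap13, a signalling scaffold (chromosome 7, 75701984), with a Day 8 score of 88.1. The next lay inside Pik3cg, the leukocyte phosphoinositide 3-kinase gamma (chromosome 12, 32186829), with a score of 86.4. Both were also called at Day 4, at scores of 129 and 87.0. The highest of the new sites at this distance lay 58 bp from Top1, DNA topoisomerase 1 (chromosome 2, 160645839), with a Day 12 score of 199. The new site 5 bp from a start of Utp20, a ribosome biogenesis factor, scored 181, and that 39 bp from a start of Ap3m1, a vesicle adaptor subunit, scored 149. The new site nearest Dnaaf6 (183) lay 392408 bp outside that gene and 393856 bp from its listed start. Another new site (172) lay inside Ncoa2. Its nearest listed start, 578921 bp away, was that of Gm31195, and no start of Ncoa2 itself was listed that near. Among sites over 10 kb from the other list, the 10 highest new ones thus ranged from 5 to 578921 bp from a listed start. The 10 highest missing ones ranged from 12243 to 431789 bp. Listed starts covered 79.9% of protein-coding genes, so the nearest true start can be closer than these distances. These genes were named after their values were seen.

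Missing and new sites differed in the other libraries that called them. Missing sites had a Day 4 summit within 100 bp in 66.0% of cases (65.2 to 66.8), and new sites in 7.18% (6.99 to 7.38). Kept sites had one in 78.3% (77.7 to 78.9). In the library titled Day 12- 12 the order was the opposite, with 16.2% of missing (15.6 to 16.8) and 42.0% of new sites (41.6 to 42.4). No other library called 25.3% of missing and 50.8% of new sites, against 5.86% of kept sites. The Day 4 list held 57424 sites and that titled Day 12- 12 held 148415, so their lengths set what shares were possible, and by treatment label the latter was a culture 8 days off Dox.

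The same order was seen when scores or list lengths were matched. At a score of 20 or more, 87.7% of missing and 39.7% of new sites had a Day 4 summit, and 38.2 and 59.8% had one in the library titled Day 12- 12. At equal length the Day 4 shares were 69.3 and 16.4%. With a score of 20 or more and no summit of the other full list within 500 bp, 1123 missing and 5595 new sites remained. Of these, 86.6% (84.4 to 88.5) of missing and 22.8% (21.7 to 23.9) of new sites were called at Day 4. Day 0 called few of either, at 3.20% of missing and 0.484% of new sites in the full lists, against 13.0% of kept sites. The libraries titled Day 12- 4 and Day 12- 8 called 5.86 and 4.40% of missing sites and 1.64 and 4.96% of new sites.

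**Figure D2:**
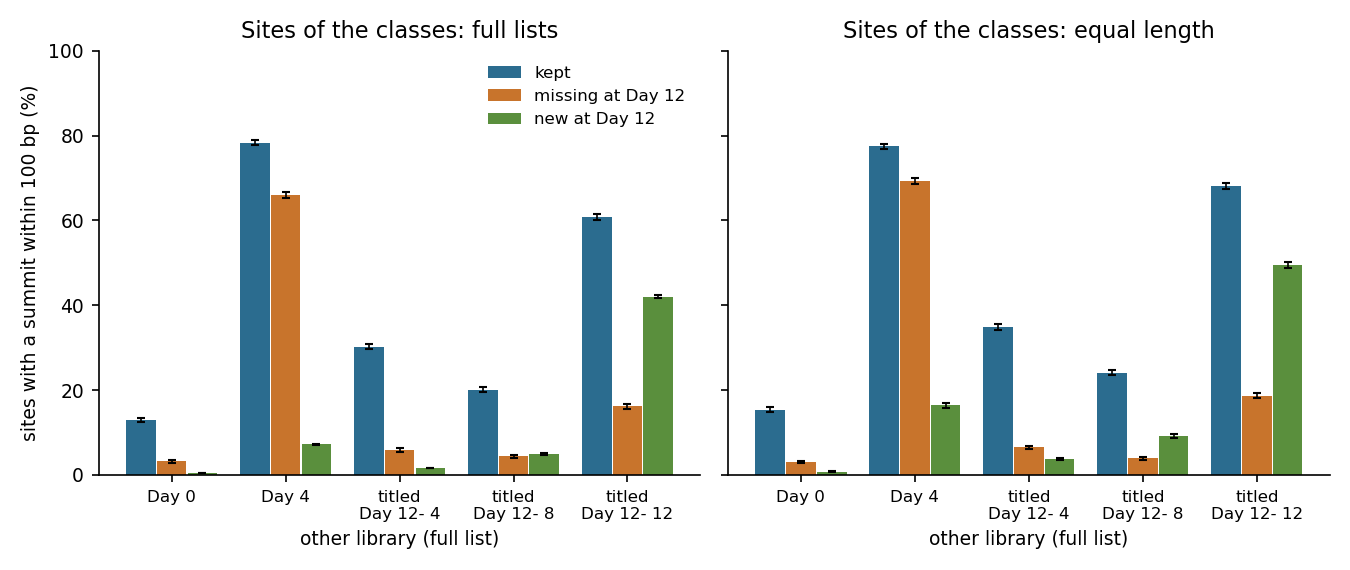
Share of kept (Day 8 summit), missing and new sites with a summit within 100 bp (y axis, percent) in each of the other 5 full lists (x axis), for full lists and for lists of equal length, with exact 95% intervals. At Day 4 the missing bar (66.0%) is far above the new bar (7.18%) in the full lists, and in the library titled Day 12- 12 the new bar (42.0%) is above the missing bar (16.2%).

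The position of new sites relative to gene starts depended on the score. In the full lists 26.6% of kept, 13.4% of missing (12.8 to 14.0) and 12.2% of new sites (11.9 to 12.4) lay within 1 kb of a listed start. At a score of 20 or more the shares were 35.6, 14.4 (13.3 to 15.5) and 34.2% (33.4 to 35.1), and at equal length 30.8, 12.1 and 23.0%. Among sites of score 20 or more the share near a start was thus 19.8 percentage points higher for new than for missing sites, while in the full lists the missing share was higher by 1.21 percentage points. With a score of 20 or more and no summit of the other list within 500 bp, the shares were 17.1% of missing and 33.1% of new sites. The table of starts held none on chromosome 18 and covered 79.9% of protein-coding genes. Inside gene bodies lay 60.6% of kept, 55.2% of missing and 67.3% of new sites in the full lists.

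**Figure D3:**
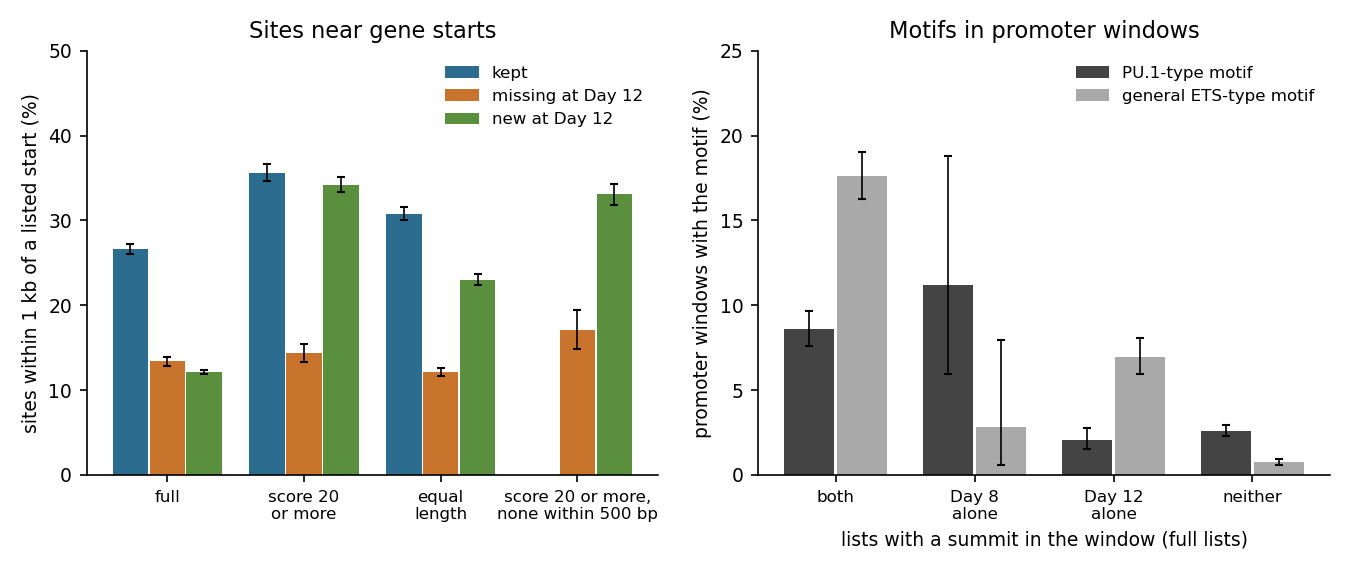
Left, share of kept, missing and new sites within 1 kb of a listed start (y axis, percent) in the full lists, at score 20 or more, at equal length, and at score 20 or more with no summit of the other list within 500 bp. Right, share of promoter windows with the PU.1-type and the general ETS-type motif by the lists with a summit in the window; bars carry exact 95% intervals, and the PU.1-type bar is 8.61% for both lists and 2.08% for Day 12 alone.

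Genes were counted by whether any summit lay in the gene body or within 10 kb of it. Of 21887 protein-coding genes, 13192 (60.3%) had a site at both times, 312 (1.43%) were missing at Day 12, 3682 (16.8%) were new and 4701 (21.5%) had none. At a score of 20 or more the numbers were 8261 (37.7%), 518 (2.37%) and 4178 (19.1%), with no site in 8930 (40.8%). At equal length they were 12334 (56.4%), 1170 (5.35%) and 1815 (8.29%), with no site in 6568 (30%). Most genes with a Day 8 site thus still had a site at Day 12, and more genes were new than missing in each of these 3 counts, less so at equal length. A gene missing or new under a limit could still have a weaker site. Of the 518 missing at a score of 20 or more, 482 had a Day 12 site of any score. Of the 4178 new at that score, 3161 had a Day 8 site of any score. Of the 1170 missing at equal length, 858 had a Day 12 site of any score. A gene called kept need not have kept a site, since 1909 kept genes (14.5%) shared none. Kept genes had a median of 2 sites at Day 8 and 4 at Day 12, with more sites at Day 12 in 9955, as many in 2381 and fewer in 856.

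Genes missing at Day 12 mostly rested on 1 weak site. Of the 312, 273 had 1 Day 8 site, 36 had a score of 20 or more, and 268 (85.9%) had a Day 4 site. Slc7a14, a lysosomal amino acid transporter, had the highest Day 8 score of them at 62.0 from a site inside the gene, and Day 4 had no summit at that position. Blk, a Src-family kinase of B cells, had 1 Day 8 site inside the gene scoring 40.7, also called at Day 4 (57.7) and in the libraries titled Day 12- 4 (10.4) and Day 12- 12 (8.89). Sox30, a testis transcription factor, and Slc1a1, a glutamate transporter, scored 29.5 and 27.2. The other 6 of the highest 10 were Igbp1b, Raver2, Sbpl, Lrrc72, Tigd4 and Rax, with scores from 29.8 to 46.3. All but Slc7a14 had a Day 4 summit at the site.

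New and missing genes differed in where their highest site lay. The highest site of a gene lay within 1 kb of a listed start for 37.7% (36.1 to 39.3) of new genes and 9.80% (6.71 to 13.7) of missing genes. For genes with a score of 20 or more these shares were 60.7% (57.5 to 63.7) of 984 and 12.5% (3.51 to 29.0) of 32. Of the 3682 new genes, 1652 had 1 Day 12 site, 1017 scored 20 or more and 1823 (49.5%) had a Day 4 site. The highest were Robo3 and Robo4, guidance receptors that share 1 site at 144, and Ercc2 at 138 with 13 sites. Dennd6b, a Rab GTPase exchange factor, and Smim7 had sites at 137 and 135 within 128 and 122 bp of a start. Aifm1, a mitochondrial oxidoreductase and death effector, had 1 site at 130.0, 64 bp from a start. Polr2d, an RNA polymerase II subunit, shared a site at 130.1 with its neighbour Ammecr1l. The site behind 1700001O22Rik lay nearest the start of Ntmt1, and the site at Eif4enif1 scored 122. These 10 genes had between 1 and 13 Day 12 sites in their windows.

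Myeloid genes were mostly kept. Over 10 lists of 154 myeloid genes, 131 had a site at both times, 2 were missing, 13 were new and 8 had none in the full lists. At a score of 20 or more the numbers were 101, 7, 17 and 29, and at equal length 122, 11, 6 and 15, so at equal length more of these genes were missing than new. Of all genes, 60.3% were kept, 1.43% missing and 16.8% new in the full lists. At a score of 20 or more these shares were 37.7, 2.37 and 19.1%, and at equal length 56.4, 5.35 and 8.29%. The counts of each list below stand beside these shares. In their windows 69.5% (65.3 to 73.5) of 502 Day 8 sites were kept, beside 61.6% for all gene windows. The kept share was 68.5% in cell cycle windows, 68.4% in housekeeping windows and 63.7% over 5 lists of other lineages and tissues. At a Day 8 score of 20 or more, 86.4% of sites in myeloid windows had a Day 12 partner of any score. That share was 84.0% for all gene windows and 87.5% over the 5 other lists. Of 939 Day 12 sites in myeloid windows 62.8% (59.7 to 65.9) were new, beside 76.8% for all gene windows. The median site score in myeloid windows was 21.9 at Day 8 and 12.8 at Day 12, beside 15.1 and 8.43 for all gene windows. Neighbouring genes can share sites, and the genes were chosen with earlier results of these data known.

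**Figure D4:**
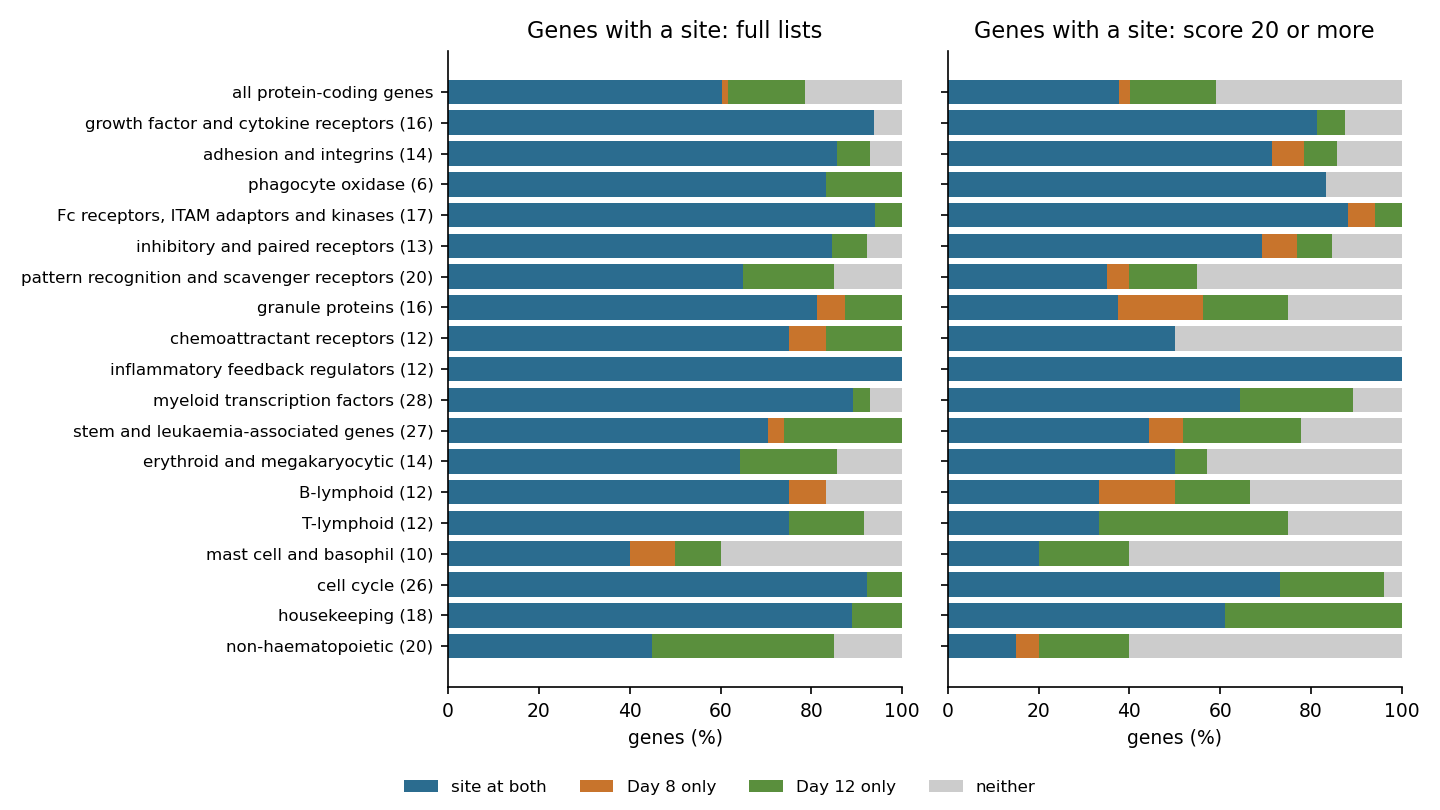
Share of the genes of each list (bars, percent; number of genes in brackets) with a site within 10 kb at both times, at Day 8 only, at Day 12 only or at neither, for full lists and for sites of score 20 or more. The top bar gives all 21887 protein-coding genes, of which 60.3% had a site at both times in the full lists.

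Receptor genes for growth factors and cytokines were kept in 15 of 16 cases with none missing or new. Csf2ra, the GM-CSF receptor alpha chain, had 3 Day 8 sites and 2 Day 12 sites, of which 1 was shared, at 197 and 469. A Day 8 summit of score 29.0 at its start, 6 bp upstream, had no Day 12 summit within 677 bp. Csf1r, the M-CSF receptor, shared 4 of its 5 Day 8 sites, and the Day 8 site without a partner scored 21.0 with the next Day 12 summit 713 bp away. Csf3r, the G-CSF receptor, shared all 4 of its Day 8 sites, with highest scores of 15.9 and 94.3. Il4ra, the IL-4 receptor chain, and Il6ra, the IL-6 receptor chain, scored 369.5 and 98.5 at Day 8, and 350.4 and 306 at Day 12.

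Adhesion genes were kept in 12 of 14 cases. Itgam, the integrin chain CD11b, kept all 3 of its Day 8 sites, which scored 13.0, 23.7 and 22.0 there and 22.0, 18.3 and 4.07 at Day 12. It had 4 new sites, of which the highest (39.7) lay 52.8 kb after the start. Another (8.97) lay 58 bp after the start and was also called at Day 4, with a score of 45.6. Itgax, the CD11c chain, had a shared Day 8 site at 35.0 and a highest Day 12 score of 16.5. Icam1 and Itgb2, a leukocyte adhesion ligand and the common integrin beta chain, scored 162 and 186 at Day 8, and 517 and 401 at Day 12. Itgb1, another integrin beta chain, was new with 1 site at 11.8.

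Subunits of the phagocyte oxidase were kept in 5 of 6 cases. Rac2, its small GTPase, had 6 Day 8 and 12 Day 12 sites with 5 shared, and highest scores of 210.0 and 807. Ncf4 and Ncf1, cytosolic subunits, each shared 5 sites, and Cyba, a membrane subunit, shared 3. Cybb, the catalytic subunit, had no Day 8 site and 1 Day 12 site at 10.5, while Day 4 had 2 sites in its window.

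Fc receptor and ITAM signalling genes were kept in 16 of 17 cases. Of their Day 8 sites of score 20 or more, 92.7% (51 of 55) had a Day 12 partner, beside 84.0% for all gene windows. This share was 94.1% (16 of 17) for the phagocyte oxidase and 92.3% (12 of 13) for erythroid and megakaryocytic genes. Over the 18 lists it ran from 66.7% (T-lymphoid, 2 of 3) to 100% (mast cell and basophil, 2 of 2). Btk, a Tec-family kinase, shared all 3 of its Day 8 sites, with highest scores of 293 and 768. Ptpn6, the phosphatase SHP-1, shared all 7, at up to 118 and 645. Lyn and Inpp5d, a Src-family kinase and the phosphatase SHIP1, shared 6 of 7 and 7 of 10. Fcgr3, an activating IgG receptor, was new through 1 site of 49.5 that lay 6.47 kb outside the gene. Inhibitory receptor genes were kept in 11 of 13 cases, among them Cd300a with highest scores of 369 and 778 and Cd72 with 182 and 593. Lilrb4a, an immunoglobulin-like inhibitory receptor, was new with 1 site at 2.95, and Cd33, a sialic acid-binding receptor, had its highest Day 8 score at 37.9 and its highest Day 12 score at 10.5.

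Pattern recognition and scavenger receptor genes were kept in 13 of 20 cases and new in 4, near the 60.3% kept and 16.8% new among all genes. The 4 were Tlr1 (15.1), Clec4e (8.67), Cd36 (3.95) and Mrc1 (4.61), all with 1 Day 12 site. Myd88, the adaptor of most Toll-like receptors, shared both of its Day 8 sites, of which the one 5.5 kb from its start scored 305 and 703. Cd68, a lysosomal glycoprotein of macrophages, shared 3 of its 6 Day 8 sites. Tlr4, the lipopolysaccharide receptor, had its Day 8 summit of 138 and its Day 12 summit of 126 at 148 bp from each other, so it counted as kept with no shared site. Tlr2 had 1 Day 8 site, of 94.7, which lay 7.73 kb outside the gene. That site had a Day 12 partner, and no Day 12 site in the window scored above 19.6. Cd14 and Ly96, co-receptors for lipopolysaccharide, had highest scores of 4.18 and 9.78 at Day 8, and 162 and 113 at Day 12.

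Granule genes were kept in 13 of 16 cases in the full lists and in 6 at a score of 20 or more, where 3 were missing and 3 new. Of all genes 2.37% were missing and 19.1% new at that score. Elane and its neighbour Prtn3, both neutrophil serine proteases, have overlapping windows with the same highest sites, 57.3 at Day 8 near the Elane start and 169 at Day 12 nearer Prtn3. Camp, the cathelicidin precursor, was new with 1 site just under a score of 20, and Cd177, a neutrophil surface glycoprotein, was new with 4 sites up to 30.3. The 3 missing at a score of 20 or more were Lyz2, lysozyme, Mmp8, a neutrophil collagenase, and S100a8, the partner of S100a9. Lyz2 had highest scores of 69.0 and 11.6, and Mmp8 of 22.1 and 4.61. The Day 8 site of 69.0 lay 6.19 kb outside Lyz2 and inside its neighbour Lyz1, which was kept at a score of 20 or more. That site and the 1 Day 8 site of Mmp8 each had a Day 12 partner, with a score below 20. These 2 genes thus crossed the score limit without loss of the site.

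At the neighbouring genes S100a8 and S100a9 no Day 8 site had a Day 12 partner. At S100a8 a Day 8 summit of 72.0 lay 93 bp before the start (chromosome 3, 90668978), and the nearest Day 12 summit, scoring 8.43, lay 1660 bp away. The same position was called at Day 4 with a score of 106, in the library titled Day 12- 4 with 13.4 and in the library titled Day 12- 12 with 12.6. The other 2 Day 8 sites at S100a8, both 7.80, had their nearest Day 12 summits 7510 and 11447 bp away. S100a9 had 2 Day 8 sites, of 17.7 and 13.0, and none at Day 12, with Day 4 summits of 20.3 and 26.9 at the same places. Among chemoattractant receptors, 9 of 12 were kept. Fpr2, a formyl peptide receptor, was missing with 1 Day 8 site of 18.6, while its neighbour Fpr1 (10.5) and Ccr1 (2.82) were new. Cmklr1, the chemerin receptor, and Cxcr4 were kept with highest scores of 410.1 and 107 at Day 8, and 894 and 381 at Day 12.

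**Figure D5:**
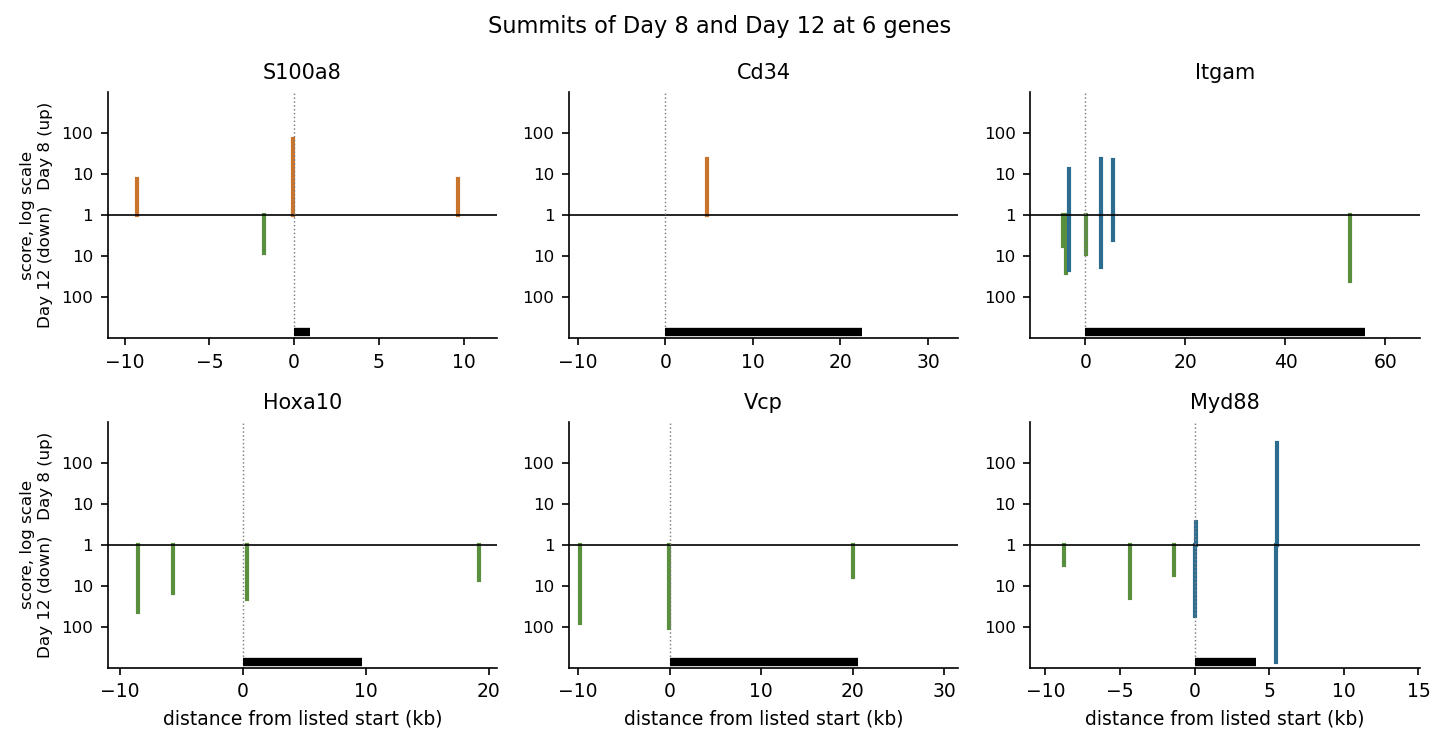
Summits of Day 8 (upward) and Day 12 (downward) around 6 genes by distance from the listed start in kb (x axis); the length of a bar is the deposited score on a log scale and the black bar is the gene. Kept sites are blue, missing orange and new green: S100a8 and Cd34 show Day 8 summits without partners, Hoxa10 and Vcp show Day 12 summits alone, and Itgam and Myd88 show both kept and new sites.

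Inflammatory feedback genes were kept in 12 of 12 cases, also at a score of 20 or more. Zc3h12a, an RNase that degrades inflammatory transcripts, shared 5 of 9 Day 8 sites, with highest scores of 235 and 844. Tnfaip3, the ubiquitin editor A20, had 1 site at each time, shared, at 275 and 366. Dusp5 and Socs3, inhibitors of MAP kinase and cytokine signalling, scored 328 and 113 at Day 8, and 434 and 423 at Day 12.

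Myeloid transcription factor genes were kept in 25 of 28 cases, and Klf6, a zinc-finger factor, was new with 4 sites up to 16.8. Spi1, the gene for PU.1, kept all 5 of its Day 8 sites, which scored from 29.6 to 217, and had 7 new sites with scores from 4.61 to 32.0. Cebpe, a factor of granulocyte maturation, kept all 4 of its Day 8 sites and had 4 new ones, the highest at 30.6. Cebpa, a factor of granulocyte commitment, kept both Day 8 sites (19.5 and 8.78) and had 5 new ones, of which the highest scored 13.2. Irf8, a monocyte and dendritic cell factor, kept its single Day 8 site and had 6 new ones, the highest at 46.6. At a score of 20 or more, 7 of these genes were new, among them Cebpa, Irf8, Egr2, Gfi1, Stat3 and Id2, whose highest Day 8 scores lay between 10.8 and 19.5. For all genes the share new at that score was 19.1%. Fosb, Egr1 and Irf7 scored 421, 283 and 95.6 at Day 8, and 827, 567 and 531 at Day 12.

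Stem and leukaemia-associated genes were kept in 19 of 27 cases, missing in 1 and new in 7, beside 16.8% new among all genes. Of their Day 8 sites 55.4% (46.4 to 64.1) were kept, and the 61.6% for all gene windows lies inside that interval. Cd34, a progenitor surface protein, was missing, with 1 Day 8 site of 23.0 inside the gene and the nearest Day 12 summit 15580 bp away. Among the new genes were Myc, Mycn, Lmo2, Hoxa7, Hoxa9 and Hoxa10, which encode transcriptional regulators. Myc had 6 Day 12 sites up to 34.3, and the nearest Day 8 summit to any of them lay 42837 bp away. Hoxa10 had 4 sites up to 43.9 and Hoxa7 had 8 sites up to 11.7, some of them shared with the window of Hoxa9, which had 3. The windows of Hoxa7, Hoxa9 and Hoxa10 held 7, 4 and 5 sites in the library titled Day 12- 12 and 5, 5 and 3 in that titled Day 12- 8. Hoxa9 and Hoxa10 had 2 and 3 sites at Day 0. Hoxa10 also had 2 at Day 4 and 1 in the library titled Day 12- 4. Hoxa7 had none at Day 0, and both Hoxa7 and Hoxa9 had none at Day 4 or in that library. Among these Hoxa genes, Hoxa10 alone was thus new only in relation to the Day 8 list. Kit, the stem cell factor receptor, counted as kept, but its 1 Day 8 site of 7.80 had no partner and its 7 Day 12 sites scored from 3.66 to 12.2. Runx1, Runx3 and Etv6, transcription factor genes, shared 5 of 8, 8 of 10 and 11 of 21 Day 8 sites, and Mcl1, a survival factor of the BCL2 family, shared 3 of 6.

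Over 5 lists of other lineages and tissues, with 68 genes, 40 were kept, 2 missing, 14 new and 12 had none in the full lists, where 16.8% of all genes were new. At equal length 37 were kept, 5 missing, 5 new and 21 had none, beside 8.29% new among all genes. In their windows 63.7% (53.0 to 73.6) of 91 Day 8 sites were kept, beside 61.6% for all gene windows. Of 324 Day 12 sites 82.1% (77.5 to 86.1) were new, beside 76.8% for all gene windows. Erythroid and megakaryocytic genes were kept in 9 of 14 cases and new in 3, among them Pf4, a platelet chemokine (9.08), and Hba-a1, an alpha globin (6.21). B-lymphoid genes were kept in 9 of 12 cases, and Rag1, a recombinase, was missing with 1 Day 8 site of 21.0 that was called at Day 4 with 47.5. T-lymphoid genes were kept in 9 of 12 cases and new in 2, Cd4 (5 sites up to 14.6) and Cd8a (2.95), and 88.9% (78.4 to 95.4) of their 63 Day 12 sites were new. Mast cell and basophil genes were kept in 4 of 10 cases, with Cma1, a chymase, missing (10.8) and Il1rl1, the IL-33 receptor, new (23.9). Non-haematopoietic genes were kept in 9 of 20 cases and new in 8. Of these 8, Tnnt2, a cardiac troponin, and Pdx1, a pancreatic factor, scored highest at 21.3 and 15.8. The others were Ins2, Myh6, Neurod1, Nkx2-5, Umod and Myod1, with scores from 3.17 to 10.0.

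In the full lists 60.3% of all genes were kept, 1.43% missing and 16.8% new. With so low a share missing among all genes, the lack of a missing cell cycle or housekeeping gene does not set these 2 lists apart. Of 26 cell cycle genes 24 were kept and 2 were new, Top2a, a DNA topoisomerase with a site of 60.5 at 24 bp after its start, and Ccna2, cyclin A2 (8.25). E2f2 and E2f1, cell cycle transcription factors, scored 108 and 148 at Day 8, and 498 and 464 at Day 12. Of 18 housekeeping genes 16 were kept and 2 were new, Vcp with 3 sites up to 105 and Hprt with 1 site of 29.8. With a score of 20 or more required, 7 of the 18 housekeeping genes and 6 of the 26 cell cycle genes were new, beside 19.1% of all genes. Sdha, a respiratory chain subunit, was among the former, with 6.42 at Day 8 and 134 at Day 12.

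The spread of sites over the chromosomes differed between the full lists. Chromosome 4 held 7.57% of Day 8 and 9.86% of Day 12 sites, and chromosome 13 held 2.92 and 2.18%. New sites made up 82.5% of Day 12 sites on chromosome 4 and 69.1% on chromosome 13, which were the highest and the lowest values in the full lists. The order changed with the score limit: at 20 or more the X chromosome was highest (72.8%) and chromosome 1 lowest (53.2%), and chromosome 4 had 60.2%. At equal length chromosome 4 was again highest (59.3%) and chromosome 16 lowest (45.4%). Chromosome 4 held 7.52% of Day 8 and 8.25% of Day 12 sites at a score of 20 or more, a smaller gap than in the full lists.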

How the data were processed

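PU.1 ChIP-seq in AML246 cells was deposited as peak summit lists, with a file here for 7 of 8 labelled samples. Day 8 and Day 12 were compared and the other 5 lists were used for description. Per the submitters' processing notes, the authors used MACS2 and the mm10 build. The deposited score was read as −log10 of the q-value, because its lowest value over all lists was 1.30104 and a q limit of 0.05 gives 1.30103. The sources used here give no aligner, version, control, depth or pooling, so a longer list can come from binding, depth or control, and a missing call is not absence of binding.

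Groups follow titles. By treatment label, Day 12- 4 had received Dox for 12 days and was a Cd11b-high sort, and Day 12- 8 and Day 12- 12 had been off Dox for 4 and 8 days. A sample labelled 12 days off Dox was not analysed here.

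Distances, counts and intervals were computed in Python 3.11.15 (scipy 1.17.1, pandas 2.3.3, numpy 2.4.6) and plotted with matplotlib 3.10.9, and the scripts were tested on simulated lists. Genes came from RefSeq on GRCm38.p6, which shares the coordinates of mm10. Genes were given 10 kb on either side, and starts came from a separate RefSeq table. Sites on unplaced scaffolds (0.424 and 0.163% of the 2 lists) entered list totals, the counts and scores of kept, missing and new sites, and their calls in other lists. They did not enter gene counts, shares inside gene bodies or named sites.

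18 lists of 293 genes were used. The comparison, its members and the lists were chosen with earlier results of these data known. The rule for named genes took the 10 highest kept sites, and the 10 highest missing and new sites over 500 bp from any summit of the other list. It also took the 10 highest missing and new genes. From each list it took the missing and new genes and the 4 kept genes with the highest Day 12 score. Others named were chosen after their values were seen, and some genes the rule took are not reported here.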

Additional observations from a re-analysis of the deposited data

How the results depend on the processing

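No paired analysis was possible because each time point was 1 library. The share of Day 8 sites kept, 58.8% in the full lists, was 62.7% at a score of at least 10, 66.6% at 20, 48.2% at equal length and 54.0% with the 8043 highest sites of each list. By distance it was 45.3% within 50 bp, 65.7% within 200 bp, 69.99% within 500 bp and 78.3% within 2000 bp. The share of Day 12 sites with a Day 8 partner, 23.2%, was 37.5, 41.3, 48.2 and 54.0% in the same lists and 17.8, 25.8, 27.6 and 37.4% at the same distances. The number of genes missing at Day 12, 312, was 536 at a score of at least 10, 518 at 20, 1170 at equal length, 1180 with the 8043 highest sites and 575 for gene bodies alone. The number of new genes, 3682, was 1815 at equal length and 2414 with 50 kb on either side. Under the other alternatives tried the 2 gene counts moved by a smaller factor.

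The alternatives for starts, motifs and Day 4 calls were chosen after seeing the data. The share of new minus missing sites near a start, -1.21 percentage points, became 19.8 at a score of 20, 10.9 at equal length, 16.0 at a score of 20 with also no summit of the other full list within 500 bp, and 1.35 for either end of a gene. The PU.1-type share of windows at Day 12 alone minus those with neither, -0.52 points, became 0.907 at 55% GC or more. The Day 4 share of missing minus new sites, 58.8 points, was 47.9, 52.9 and 63.8 under the first 3 of these. The cause was not tested. Depth is unknown, and intervals cover counting error only.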
